A study of Mus musculus with 12 samples.

Results

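The proteasome is encoded mainly by the Psm genes. The 48 genes with a symbol of Psm, one of the letters a to g and a number were followed in mouse cells of 2 stages, the epiblast-like cell (EpiLC) and the primordial germ cell-like cell (PGCLC) made from it. They were taken by symbol from the 22440 genes of the deposited tables, of which 21728 were in a count file, and were joined to the counts by Ensembl ID. The choice was made with earlier results of these data known. By role they were 7 alpha ring genes (Psma1 to Psma7), the testis alpha gene Psma8, 7 constitutive beta ring genes (Psmb1 to Psmb7), 3 immunoproteasome genes (Psmb8, Psmb9 and Psmb10) and the thymoproteasome gene Psmb11. The regulatory particle adds 6 base ATPase genes (Psmc1 to Psmc6), 3 other base genes (Psmd1, Psmd2 and Psmd4) and 8 lid genes (Psmd3, Psmd6, Psmd7, Psmd8, Psmd11, Psmd12, Psmd13 and Psmd14). Assembly chaperones of the regulatory particle (Psmd5, Psmd9 and Psmd10) and of the core (Psmg1 to Psmg4), the activators Psme1 to Psme4 and the inhibitor Psmf1 complete the set. In each comparison 47 members passed the filter on low counts. The exception was Psmb11, which was listed in 1 of the 12 libraries, untreated PGCLC replicate 3, with 12 counts.

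The core particle is a barrel of stacked rings in which outer alpha rings gate the entry and inner beta rings hold the proteolytic sites, while the regulatory particle binds ubiquitin-tagged proteins, removes the ubiquitin, unfolds the chain and threads it into the barrel. The catalytic beta subunits Psmb5, Psmb6 and Psmb7 can be replaced by Psmb8, Psmb9 and Psmb10 to form the immunoproteasome, which is known for making peptides for MHC class I and is induced by interferon. Pluripotent stem cells are known for high proteasome activity, and a testis form of the core that carries Psma8 is known from spermatogenesis.

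The cells came from mouse embryonic stem cells of strain C57BL/6 and genotype Blimp1-mVenus; Stella-ECFP (BVSC), which carry fluorescent reporters of Blimp1 (Prdm1) and Stella (Dppa3), and all 12 mRNA libraries share that genotype. There were 4 groups of 3 libraries: day 5 PGCLCs of the 100 nM bisphenol A (BPA) arm, untreated day 5 PGCLCs, EpiLCs exposed to 100 nM BPA, and untreated EpiLCs. BPA is a plastics monomer with weak oestrogenic activity. The stem cells had been kept in 2i with LIF and were turned into EpiLCs over 48 h, with BPA medium added 24 h after seeding and left on for 24 h. The sources used here do not say whether the PGCLC medium also held BPA. PGCLCs were sorted from dissociated aggregates as positive for both reporters. The untreated EpiLCs are labelled as water controls. For untreated EpiLC replicate 3 the title and the description give different replicate numbers, and the title was followed. Separate cultures for the replicates are not stated, so the p-values reflect only the spread between libraries, which may be technical. The descriptions of the EpiLCs, the untreated PGCLCs and the BPA PGCLCs follow different naming schemes and give no batch or date, so a difference in library preparation between these sets cannot be told apart from stage, or from BPA in PGCLCs.

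Libraries held 11785338 to 34309195 counts assigned to genes. The files leave out genes under 10 counts, so an unlisted gene had 9 counts or fewer. Levels are CPM, the counts scaled to a common library size by TMM over all 12 libraries, and levels of different genes are compared per kb of the principal transcript. A change is a log2 difference with its standard error (SE), and a gene is called at an adjusted p under 0.05 from edgeR's quasi-likelihood test with Benjamini-Hochberg adjustment over all genes tested. Every adjusted p below is from that test unless another tool is named. Untreated EpiLC replicate 3 stood apart: its ribosomal protein share was 14.4% of counts, while the other EpiLC libraries had 8.41% to 9.48%. It was the highest of the 6 EpiLC libraries for 42 of the 47 members, or 89.4%, against 40.6% of the 13777 genes listed in all of them. BPA PGCLC replicate 3 also stood apart from the other BPA PGCLC libraries, with a chi-square per gene of 50.95 and 49.9 against replicates 1 and 2, beside 3.91 between those. The 6 germ cell markers summed to 589 to 650.1 CPM in BPA PGCLCs, 703 to 817 CPM in untreated PGCLCs, 39.6 to 43.6 CPM in BPA EpiLCs, and 39.5 to 49.2 CPM in untreated EpiLCs. The 7 epiblast markers summed to 436 to 479.6 CPM in BPA PGCLCs, 408 to 423 CPM in untreated PGCLCs, 1561 to 1639 CPM in BPA EpiLCs, and 1402 to 1606 CPM in untreated EpiLCs, with Dnmt3a and Dnmt3b the most abundant of them in EpiLCs. In both stage comparisons 5 of the 7 were lower in PGCLCs, Fgf5 was not called, and Otx2 was higher, at 77.3 ± 8.02 CPM in untreated PGCLCs and 11.5 ± 0.789 CPM in untreated EpiLCs (SD, n = 3 each, log2 change 2.75 ± 0.15 (SE), adjusted p = 3.30e-08). Fgf5 was low at both stages, at 5.11 ± 1.46 CPM in untreated PGCLCs and 7.05 ± 0.482 CPM in untreated EpiLCs. Markers of other lineages were present in the sorted PGCLCs and are given beside the BPA results.

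Among the catalytic genes the immunoproteasome members moved apart from their constitutive partners, so the 150 bases before the start site are shown for those with a promoter in the RefSeq table (build GRCm38.p6). Capitals mark the antioxidant response element core TGACNNNGC, the CCAAT box and the gamma activated site core TTCNNNGAA, each searched on both strands, so that a CCAAT box on the other strand reads ATTGG.
Psmb5 (chr14:54617996-54618145, minus strand): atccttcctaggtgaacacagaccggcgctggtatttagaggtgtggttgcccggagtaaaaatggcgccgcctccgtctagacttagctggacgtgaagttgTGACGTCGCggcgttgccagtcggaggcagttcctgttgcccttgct
Psmb6 (chr11:70525207-70525356, plus strand): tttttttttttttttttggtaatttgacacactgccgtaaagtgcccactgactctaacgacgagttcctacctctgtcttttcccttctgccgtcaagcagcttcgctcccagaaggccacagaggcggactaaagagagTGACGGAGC
Psmb8 (chr17:34198045-34198194, plus strand): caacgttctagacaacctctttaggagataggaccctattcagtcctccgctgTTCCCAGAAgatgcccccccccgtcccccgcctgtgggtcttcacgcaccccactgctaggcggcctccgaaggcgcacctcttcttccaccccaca
Psmb9 (chr17:34187331-34187480, minus strand): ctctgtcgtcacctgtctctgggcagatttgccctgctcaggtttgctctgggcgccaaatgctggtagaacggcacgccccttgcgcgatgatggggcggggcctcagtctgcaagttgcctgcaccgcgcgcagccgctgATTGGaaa
Psmb10 (chr8:105938393-105938542, minus strand): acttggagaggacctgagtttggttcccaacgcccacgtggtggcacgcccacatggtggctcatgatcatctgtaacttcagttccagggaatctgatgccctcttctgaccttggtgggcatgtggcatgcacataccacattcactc
In these stretches the antioxidant core was found in Psmb5 and Psmb6, the gamma activated core in Psmb8 and the CCAAT box in Psmb9, and the letters of the 3 motifs were not found in Psmb10. RefSeq promoters of 250 bases before to 50 after the start matched 40 of the 48 members, with 43 promoters. The antioxidant core was in 6 of the 43 (14.0%), those of Psmb5, Psmb6, Psmc6, Psmd9, Psmd12 and Psme4, against 12.4% of all 32851 promoters. A CCAAT box was in 14 (32.6%), against 37.4% of all promoters, and the gamma activated core was in 3 (6.98%), those of Psmb8, Psmd2 and Psmg1, against 8.30%. A letter match is a description of the window and not a binding site.

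The members lie on 16 chromosomes, and few are neighbours of each other. Psmb11 and Psmb5 lie 3410 bp apart and Psme1 and Psme2 lie 5911 bp apart on chromosome 14, and Psmb8 and Psmb9 lie 9956 bp apart on chromosome 17. The start sites of 8 members lie within 1000 bp of a gene that runs the other way, among them Psmc2 with Dnajc2 and Psmb1 with Tbp. Of the 48 principal transcripts, 24 share no 50-base word with another annotated gene, 10 share 10% to 50% of them and 4 share over 50%. The 4 are Psme2 (59.3%, mainly with Psme2b), Psmb5 (57.1%, mainly with Gm3375), Psmb3 (55.8%, mainly with AC114990.1) and Psma5 (55.4%, mainly with Gm8394). Their counts are uncertain to the extent that the counting split reads between copies.

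Proteasome genes took a smaller share of the counts in PGCLCs than in EpiLCs, and the smallest share in BPA PGCLCs. The 48 genes together took 0.571%, 0.564% and 0.606% in BPA PGCLCs, 0.689%, 0.689% and 0.686% in untreated PGCLCs, 0.9398%, 0.921% and 0.951% in BPA EpiLCs, and 0.951%, 0.924% and 1.19% in untreated EpiLCs. The PGCLC groups did not overlap each other or any EpiLC library, while the EpiLC groups overlapped and untreated EpiLC replicate 3 was the highest of the 12. Ribosomal protein genes moved the same way, with 4.85% to 5.02% in BPA PGCLCs, 6.23% to 6.62% in untreated PGCLCs, 8.49% to 9.48% in BPA EpiLCs, and 8.41% to 14.4% in untreated EpiLCs, and their part in the difference was not tested beyond leaving them out of the total, which kept the order of the group means (0.610% in BPA PGCLCs, 0.735% in untreated PGCLCs, 1.03% in BPA EpiLCs and 1.15% in untreated EpiLCs). In bulk libraries, fewer cells of a type and less RNA per cell cannot be told apart.

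**Figure D1:**
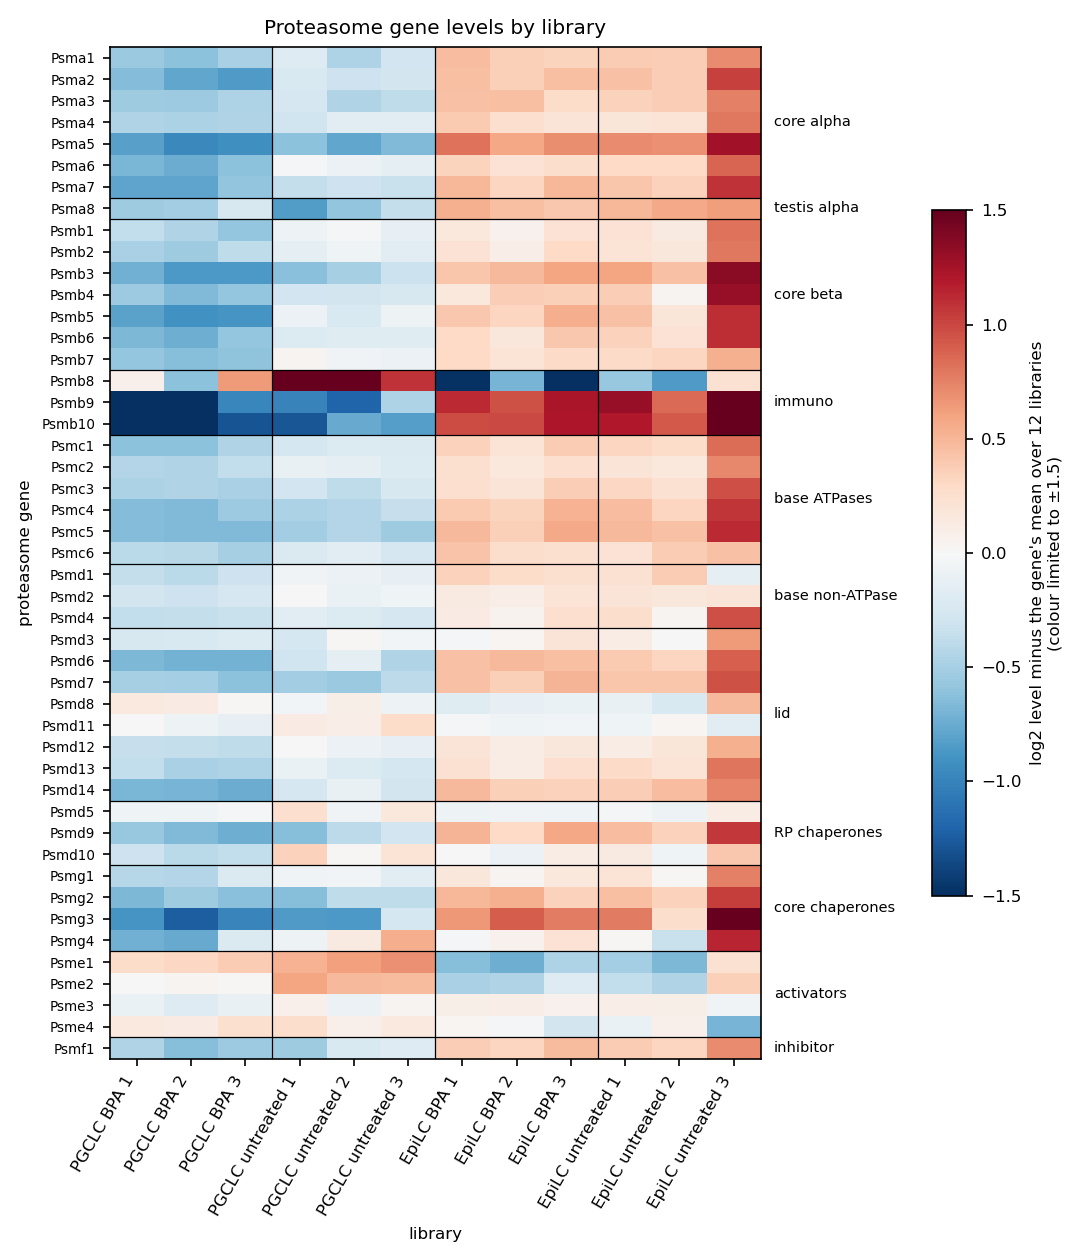
Each of the 47 tested members is a row and each library a column, and colour is the log2 level minus the gene's mean over the 12 libraries. Most rows are lower in PGCLCs, Psmb8, Psme1 and Psme2 run the other way, and untreated EpiLC replicate 3 is the highest EpiLC column for 42 members.

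Subunits that assemble in equal number did not have equal mRNA levels per kb. In the alpha ring the group means, in CPM per kb, ran from 44.1 (Psma2) to 161 (Psma7) in BPA PGCLCs, 52.6 (Psma3) to 211 (Psma7) in untreated PGCLCs, 88.5 (Psma3) to 361 (Psma7) in BPA EpiLCs, and 95.6 (Psma3) to 417 (Psma7) in untreated EpiLCs. Psma7 led this ring in all 4 groups. In the constitutive beta ring the means ran from 64.1 (Psmb5) to 237 (Psmb6) in BPA PGCLCs, 107 (Psmb5) to 329 (Psmb6) in untreated PGCLCs, 136 (Psmb1) to 460.2 (Psmb6) in BPA EpiLCs, and 165 (Psmb1) to 573 (Psmb6) in untreated EpiLCs CPM per kb. Psmb6, the caspase-like site, led in each group, and Psmb5, the chymotrypsin-like site, was the lowest in both PGCLC groups. The base ATPases had means from 59.4 (Psmc6) to 119 (Psmc1) in BPA PGCLCs, 69.5 (Psmc6) to 149.8 (Psmc1) in untreated PGCLCs, 100.2 (Psmc6) to 226 (Psmc5) in BPA EpiLCs, and 102 (Psmc6) to 267 (Psmc5) in untreated EpiLCs CPM per kb. Psmc6 was the lowest ATPase throughout, and the regulatory particle was of the same order as the core. Far below lay the core chaperone Psmg3, with 3.65 ± 0.4498 in BPA PGCLCs, 4.83 ± 1.19 in untreated PGCLCs, 12.9 ± 1.16 in BPA EpiLCs, and 15.4 ± 8.06 in untreated EpiLCs CPM per kb (SD, n = 3 each). The inhibitor Psmf1 was also low, with 7.85 ± 0.505 in BPA PGCLCs, 9.25 ± 1.15 in untreated PGCLCs, 15.05 ± 0.835 in BPA EpiLCs, and 15.97 ± 2.36 in untreated EpiLCs CPM per kb (SD, n = 3 each).

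Untreated PGCLCs against untreated EpiLCs addressed how the family changes as EpiLCs become germ cell-like. Of the 47 tested members, 36 were lower in untreated PGCLCs, against 25.2% of the 17608 tested genes, and 4 were higher, against 30.4%. The median change of the members was -0.69 and that of all tested genes was 0.07. All 7 alpha ring genes, all 7 constitutive beta genes and all 6 base ATPases were called lower. The 4 higher members were the immunoproteasome gene Psmb8, the activator genes Psme1 and Psme2, and the lid gene Psmd11. Without untreated EpiLC replicate 3, 36 members were lower (against 24.3% of genes) and 3 higher (against 26.5%), with a median change of -0.49. Without untreated EpiLC replicate 1, 2 were higher (against 24.7%). The lower calls of Psmb1, Psmd3 and Psmg1 were lost in at least 1 of 6 fits that left out a library, Psmb1 without untreated PGCLC replicate 3, Psmg1 without any 1 of the untreated PGCLC libraries, and Psmd3 without any 1 of these or untreated EpiLC replicate 3 (adjusted p up to 0.0532, 0.0925 and 0.159).

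BPA PGCLCs against BPA EpiLCs made the stage comparison in the other 6 libraries. There 38 of 47 members were lower, against 25.0% of the 17608 tested genes, and 2 were higher, Psmb8 and Psme1, against 32.5%. The medians were -0.87 for the members and 0.13 for all tested genes. The 35 members called lower in both stage comparisons were 97.2% of those lower in untreated libraries and 92.1% of those lower in BPA libraries. In opposite directions 0 members were called. The same overlap was not worked out for all tested genes, so it cannot be read as particular to the members. In BPA libraries the lower calls of Psmd4, Psmg1, Psmd10 and Psme3 were kept in 1, 2, 1 and 0 of 6 fits that left out a library, with adjusted p up to 0.109, 0.0726, 0.138 and 0.119. Each was lost without BPA EpiLC replicate 1 or 3 and without BPA PGCLC replicate 1 or 2. Psmd4, Psmd10 and Psme3 were also lost without BPA PGCLC replicate 3, and Psme3 without BPA EpiLC replicate 2.

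**Figure D2:**
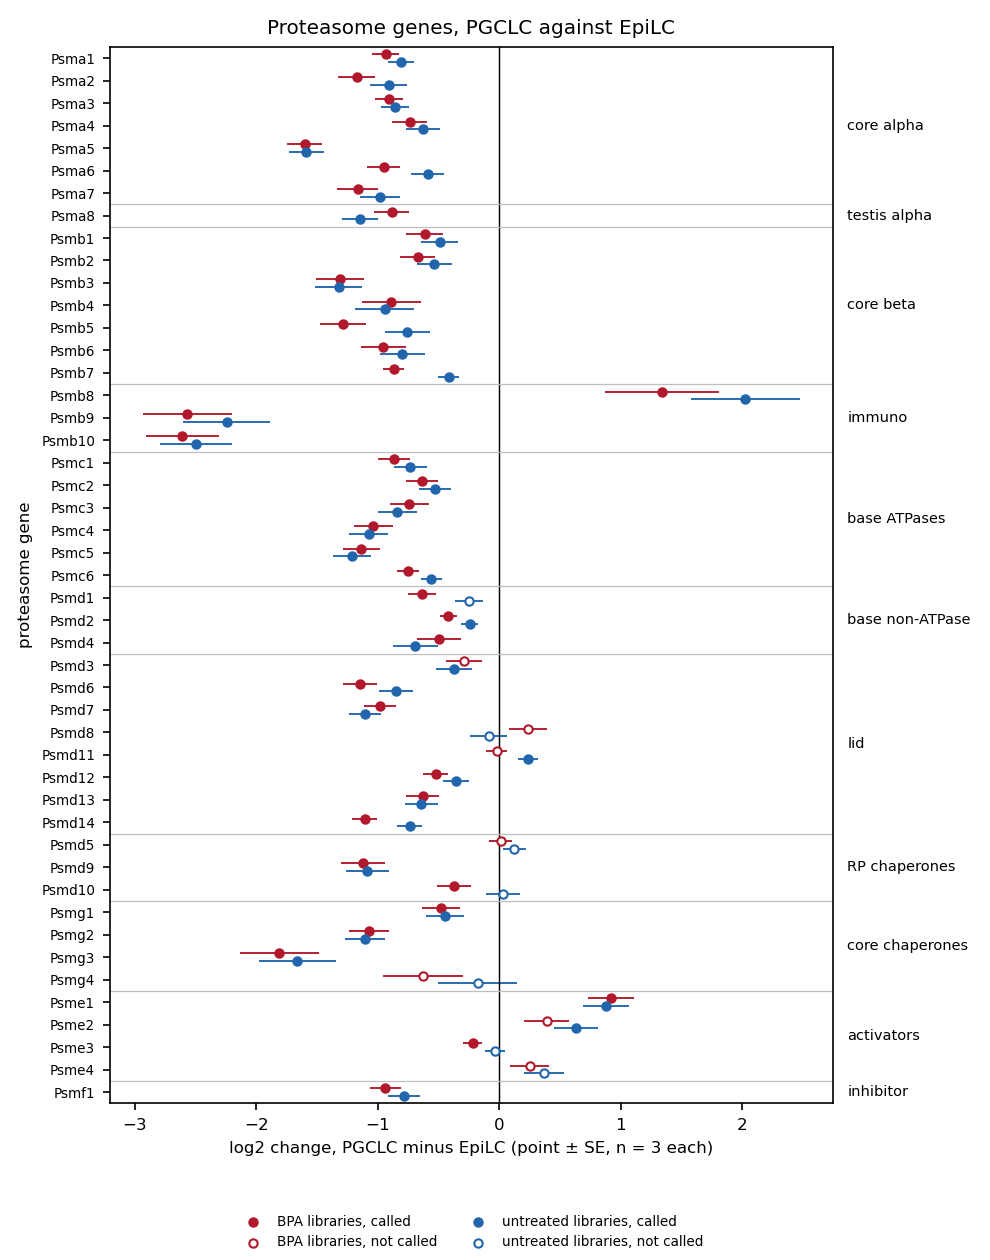
Log2 change of each tested member between PGCLCs and EpiLCs with its SE, in BPA libraries and in untreated libraries, 3 against 3, with filled points for members called at an adjusted p under 0.05. The alpha, constitutive beta and ATPase points lie left of 0 in both comparisons, and Psmb8 and Psme1 lie right of 0 in both.

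In the alpha ring the changes in untreated libraries ran from -1.59 (Psma5) to -0.59 (Psma6), with a median of -0.86. Psma5 stood at 80.9, 73.00 and 75.4 CPM in BPA PGCLCs, 93.1, 83.2 and 89.9 CPM in untreated PGCLCs, 251, 214 and 231 CPM in BPA EpiLCs, and 232, 229.8 and 340.3 CPM in untreated EpiLCs. Every PGCLC library lay below every EpiLC library. Its change was -1.59 ± 0.14 (log2, SE, adjusted p = 2.57e-06) in untreated and -1.60 ± 0.14 (log2, SE, adjusted p = 2.05e-06) in BPA libraries. The related Gm8394, which shares part of its sequence, was at most 0.368 CPM in BPA PGCLCs, 0.311 CPM in untreated PGCLCs, 22.0 CPM in BPA EpiLCs and 31.7 CPM in untreated EpiLCs. The part of shared reads in the change of Psma5 was not tested. The testis gene Psma8 stood at 8.71, 8.81 and 10.7 CPM in BPA PGCLCs, 7.08, 8.398 and 9.91 CPM in untreated PGCLCs, 18.3, 17.3 and 16.7 CPM in BPA EpiLCs, and 17.9, 18.7 and 19.6 CPM in untreated EpiLCs. It was lower in all PGCLC libraries, with -1.15 ± 0.15 (log2, SE, adjusted p = 4.52e-05) in untreated and -0.89 ± 0.15 (log2, SE, adjusted p = 0.000282) in BPA libraries. Per kb, Psma8 made up 3.26%, 3.298% and 3.47% in BPA PGCLCs, 1.97%, 2.27% and 2.703% in untreated PGCLCs, 2.81%, 2.98% and 2.56% in BPA EpiLCs, and 2.903%, 3.197% and 2.01% in untreated EpiLCs of the sum of Psma7 and Psma8. The 3 BPA PGCLC libraries had the largest Psma8 shares of the 12, and the other groups overlapped.

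In the constitutive beta ring the changes in untreated libraries ran from -1.32 (Psmb3) to -0.42 (Psmb7), with a median of -0.76. Psmb3, a non-catalytic ring member, stood at 101, 91.95 and 91.5 CPM in BPA PGCLCs, 108, 118 and 133 CPM in untreated PGCLCs, 223, 234 and 252 CPM in BPA EpiLCs, and 251, 226 and 425 CPM in untreated EpiLCs. The PGCLC groups lay apart from each other and below every EpiLC library. Psmb3 changed by -1.32 ± 0.20 (log2, SE, adjusted p = 0.000131) in untreated and -1.31 ± 0.20 (log2, SE, adjusted p = 0.000123) in BPA libraries. Psmb5 stood at 60.02, 55.9 and 56.98 CPM in BPA PGCLCs, 98.9, 89.9 and 99.8 CPM in untreated PGCLCs, 139, 131 and 153 CPM in BPA EpiLCs, and 143, 119 and 227 CPM in untreated EpiLCs. Only the EpiLC groups overlapped for this gene. Its change was -0.76 ± 0.19 (log2, SE, adjusted p = 0.00437) in untreated and -1.29 ± 0.19 (log2, SE, adjusted p = 0.000102) in BPA libraries. Gm3375, which shares sequence with Psmb5, was at 9.64 to 12.2 CPM in BPA PGCLCs, 13.8 to 19.4 CPM in untreated PGCLCs, 50.8 to 55.2 CPM in BPA EpiLCs and 50.4 to 83.8 CPM in untreated EpiLCs, and the part of shared reads in the change of Psmb5 was not tested.

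The immunoproteasome genes did not move together between the stages. Psmb10, the counterpart of the trypsin-like site Psmb7, stood at 10.98, 10.1 and 13.8 CPM in BPA PGCLCs, 13.9, 20.03 and 19.2 CPM in untreated PGCLCs, 67.03, 67.5 and 78.98 CPM in BPA EpiLCs, and 77.96, 64.4 and 158 CPM in untreated EpiLCs. All PGCLC libraries lay far below all EpiLC libraries. Psmb10 had the largest fall of the 47 members in both stage comparisons, with -2.49 ± 0.30 (log2, SE, adjusted p = 2.34e-05) in untreated and -2.61 ± 0.30 (log2, SE, adjusted p = 1.51e-05) in BPA libraries. Psmb9, the counterpart of Psmb6, stood at 0.7799, 0.532 and 1.16 CPM in BPA PGCLCs, 1.15, 0.995 and 1.66 CPM in untreated PGCLCs, 4.996, 4.44 and 5.36 CPM in BPA EpiLCs, and 5.65, 4.12 and 8.36 CPM in untreated EpiLCs. It fell between the stages as well, while the PGCLC groups overlapped. Its change was -2.24 ± 0.36 (log2, SE, adjusted p = 0.000228) in untreated and -2.57 ± 0.37 (log2, SE, adjusted p = 8.73e-05) in BPA libraries. Psmb9 and Tap1 overlap by 212 exonic bases on opposite strands, and the sources used here do not give the strand setting used in counting.

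Psmb8, the counterpart of Psmb5, ran the other way. It stood at 1.82, 1.13 and 2.69 CPM in BPA PGCLCs, 7.87, 5.16 and 3.66 CPM in untreated PGCLCs, 0.618, 1.07 and 0.586 CPM in BPA EpiLCs, and 1.17, 0.9603 and 2.02 CPM in untreated EpiLCs. Untreated PGCLCs were above every other library, and BPA PGCLCs overlapped untreated EpiLCs. The EpiLC values rest on 11 to 29 counts, close to the listing limit of 10. Psmb8 had the largest rise of the members in untreated libraries (log2 change 2.03 ± 0.45 (SE), adjusted p = 0.00236) and in BPA libraries (log2 change 1.34 ± 0.47 (SE), adjusted p = 0.0285). In BPA libraries its call was lost when any of 4 libraries was left out, BPA EpiLC replicate 1 or 3 or BPA PGCLC replicate 1 or 3, with adjusted p up to 0.105.

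Set against their constitutive partners, the immunoproteasome genes formed a smaller share of the catalytic mRNA in PGCLCs. Per kb, Psmb8, Psmb9 and Psmb10 together were 2.53%, 2.33% and 3.16% in BPA PGCLCs, 2.79%, 3.34% and 3.12% in untreated PGCLCs, 6.65%, 7.18% and 7.27% in BPA EpiLCs, and 7.51%, 6.76% and 9.32% in untreated EpiLCs of the 6 catalytic genes. The stages lay apart, and the treatments overlapped within each stage. Psmb10 was 8.53% to 11.1% in BPA PGCLCs, 7.42% to 10.97% in untreated PGCLCs, 24.4% to 27.7% in BPA EpiLCs, and 23.4% to 39.3% in untreated EpiLCs of the sum of Psmb7 and Psmb10. Psmb8 was 1.104% to 2.54% in BPA PGCLCs, 1.99% to 4.21% in untreated PGCLCs, 0.211% to 0.449% in BPA EpiLCs, and 0.443% to 0.4896% in untreated EpiLCs of the sum of Psmb5 and Psmb8. Psmb9 was 0.174% to 0.3398% in BPA PGCLCs, 0.222% to 0.369% in untreated PGCLCs, 0.772% to 0.794% in BPA EpiLCs, and 0.696% to 0.869% in untreated EpiLCs of the sum of Psmb6 and Psmb9. Thus the Psmb8 share was larger in PGCLCs and the Psmb9 and Psmb10 shares were larger in EpiLCs, with no overlap between the stages in any of the 3. These shares are sums over members within a library and carry no p.

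**Figure D3:**
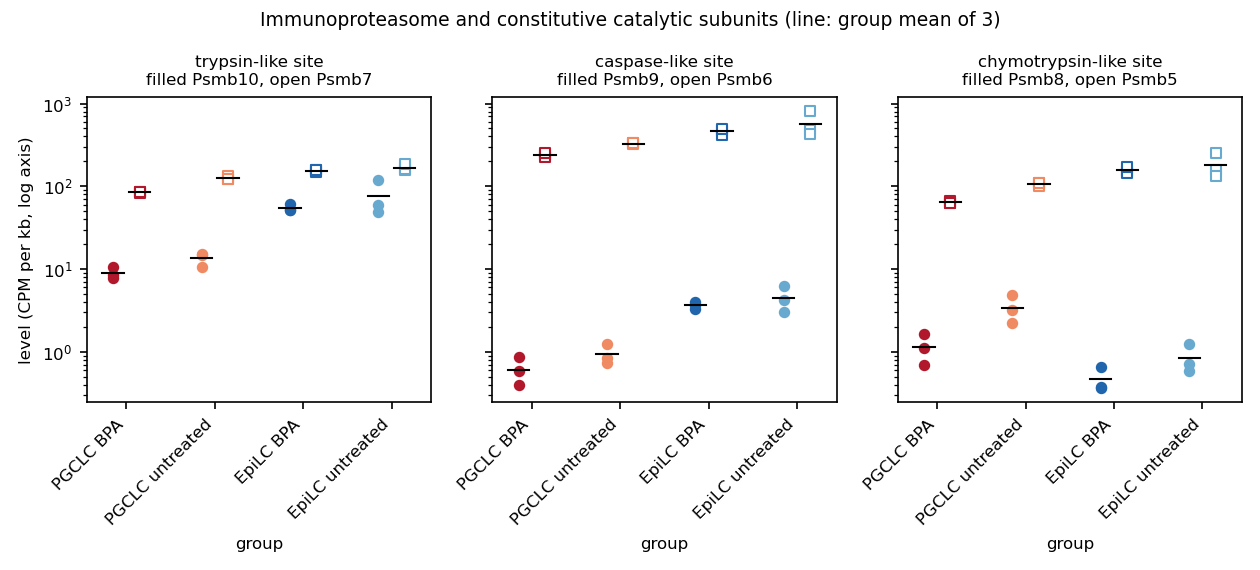
Levels per kb of transcript on a log axis in each library for the 3 catalytic sites, with each immunoproteasome gene beside its constitutive partner and lines at the means of 3 libraries. Psmb10 and Psmb9 are lower in both PGCLC groups than in EpiLCs, and Psmb8 is highest in untreated PGCLCs.

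The regulatory particle followed the core in most of its genes. Of its 17 base and lid genes, 14 were lower in untreated PGCLCs than in untreated EpiLCs, against 25.2% of all tested genes. Of the others, 1 was higher, against 30.4%, and 2 were not called. The median change was -0.64, beside -0.80 for the 14 core genes. Base ATPase changes ran from -1.21 (Psmc5) to -0.53 (Psmc2). Psmc5, one of the unfolding ATPases, stood at 136, 135 and 135 CPM in BPA PGCLCs, 149, 158 and 148 CPM in untreated PGCLCs, 299, 275 and 317 CPM in BPA EpiLCs, and 299, 289.6 and 466 CPM in untreated EpiLCs. The PGCLC groups were apart from each other and from the EpiLCs (log2 change -1.21 ± 0.15 (SE), adjusted p = 4.19e-05, in untreated libraries). Of the large scaffold genes, Psmd2 changed by -0.24 ± 0.07 (log2, SE, adjusted p = 0.0104) and Psmd1, which was not called, by -0.25 ± 0.11 (log2, SE, adjusted p = 0.078). In the lid, Psmd7 had the largest fall (log2 change -1.11 ± 0.13 (SE), adjusted p = 2.72e-05), the deubiquitinase gene Psmd14 fell too (log2 change -0.74 ± 0.10 (SE), adjusted p = 8.03e-05), and Psmd8 was not called (log2 change -0.09). Psmd11 stood at 212, 201 and 194 CPM in BPA PGCLCs, 230.5, 226 and 256 CPM in untreated PGCLCs, 209, 203 and 206 CPM in BPA EpiLCs, and 202, 215 and 188 CPM in untreated EpiLCs. Untreated PGCLCs were above all other libraries, and BPA PGCLCs overlapped the EpiLCs. Its rise in untreated PGCLCs was small (log2 change 0.24 ± 0.08 (SE), adjusted p = 0.0325) and was lost under 7 of 14 alternatives, among them the fits without untreated EpiLC replicate 1, without untreated EpiLC replicate 3 and without untreated PGCLC replicate 3 (adjusted p up to 0.191).

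Assembly factors were mixed. Of the 4 core chaperones, which guide the alpha ring together, Psmg1, Psmg2 and Psmg3 were called lower in both stage comparisons and Psmg4 in neither, and the calls of Psmg1 depended on the libraries, as given above. Psmg3 stood at 3.57, 2.79 and 3.31 CPM in BPA PGCLCs, 3.67, 3.64 and 5.48 CPM in untreated PGCLCs, 10.4, 12.4 and 11.3 CPM in BPA EpiLCs, and 11.3, 7.91 and 21.6 CPM in untreated EpiLCs. It was low throughout, with untreated EpiLC replicate 3 the highest library and every PGCLC library below every EpiLC library. Its change was -1.66 ± 0.32 (log2, SE, adjusted p = 0.000894) in untreated and -1.81 ± 0.32 (log2, SE, adjusted p = 0.000496) in BPA libraries. Of the regulatory particle chaperones, Psmd9 was lower in both comparisons (-1.09 and -1.12 in untreated and BPA libraries), Psmd5 was called in neither, and Psmd10 was called lower in BPA libraries in a call kept in 1 of 6 fits that left out a library (log2 change -0.37 ± 0.14 (SE), adjusted p = 0.0394) and not called in untreated libraries (log2 change 0.03).

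Activators were the class with the highest median change, 0.50 in untreated and 0.32 in BPA libraries, but Psme3 did not rise. Psme3 changed by -0.04 in untreated libraries, where it was not called, and by -0.22 in BPA libraries. There it was called lower, in a call kept in 0 of 6 fits that left out a library. Psme1 and Psme2 encode the ring that caps the core without ATP and is known from interferon-treated cells. Psme1 stood at 86.3, 88.3 and 92.8 CPM in BPA PGCLCs, 102, 109.9 and 115 CPM in untreated PGCLCs, 45.9, 43.2 and 52.1 CPM in BPA EpiLCs, and 50.1, 44.9 and 84.04 CPM in untreated EpiLCs. Both PGCLC groups lay above every EpiLC library. Its change was 0.87 ± 0.19 (log2, SE, adjusted p = 0.00205) in untreated and 0.92 ± 0.19 (log2, SE, adjusted p = 0.00141) in BPA libraries. Psme2 stood at 45.3, 46.99 and 45.9 CPM in BPA PGCLCs, 68.5, 63.9 and 63.1 CPM in untreated PGCLCs, 32.6, 33.2 and 39.7 CPM in BPA EpiLCs, and 35.1, 33.2 and 58.2 CPM in untreated EpiLCs. Untreated PGCLCs were above all other libraries, and untreated EpiLC replicate 3 exceeded the BPA PGCLCs. Psme2 changed by 0.63 ± 0.18 (log2, SE, adjusted p = 0.0108) in untreated libraries, a call lost without untreated EpiLC replicate 1 (adjusted p = 0.0517), and by 0.39 ± 0.18 (log2, SE, adjusted p = 0.0858) in BPA libraries. Psme4, the large activator known for its part in histone removal in germ cells, stood at 425, 418 and 454 CPM in BPA PGCLCs, 461, 405 and 426 CPM in untreated PGCLCs, 393, 379.9 and 318 CPM in BPA EpiLCs, and 359, 405 and 237 CPM in untreated EpiLCs. Every PGCLC library lay above every EpiLC library, by a margin under the rounding shown between untreated PGCLC replicate 2 and untreated EpiLC replicate 2, and untreated EpiLC replicate 3 was the lowest. Psme4 was not called, with 0.37 ± 0.16 (log2, SE, adjusted p = 0.0719) in untreated and 0.25 ± 0.16 (log2, SE, adjusted p = 0.203) in BPA libraries. The inhibitor gene Psmf1 fell in both comparisons, with -0.79 ± 0.13 (log2, SE, adjusted p = 0.000295) in untreated and -0.94 ± 0.13 (log2, SE, adjusted p = 6.85e-05) in BPA libraries.

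Genes that serve the proteasome from outside the symbol rule were called in both directions, against 30.4% of all tested genes called higher and 25.2% called lower in untreated libraries, and the counts below are to be read beside these shares. Of 9 further subunits and cofactors, 4 were lower in untreated PGCLCs than in untreated EpiLCs and 0 higher, namely the core maturation factor Pomp (-1.19 on the log2 scale), the deubiquitinases Uchl5 (-1.02) and Usp14 (-0.41) and the ubiquitin receptor Adrm1 (-0.72). Of 7 regulators of proteasome genes 4 were higher and 1 lower, with log2 changes of 0.68 for Ddi2, the protease that activates Nfe2l1, 0.64 for Ngly1, which deglycosylates it, 0.39 for the stress factor Nfe2l2 and -0.40 for the small Maf gene Mafg. Of 8 shuttle and segregase genes 3 were higher and 2 lower, with log2 changes that included 1.06 for Ubqln2, 0.58 for Ubqln4 and -0.45 for Ufd1. Of 6 ubiquitin and E1 genes 2 were higher, the E1 genes Uba6 (0.85) and Uba1 (0.26), and 2 lower, among them the ubiquitin gene Rps27a (-1.05). Of 10 genes of MHC class I presentation, 4 were higher and 3 lower. Among them the heavy chain gene H2-K1 stood at 29.6, 28.3 and 20.8 CPM in BPA PGCLCs, 14.02, 27.1 and 25.96 CPM in untreated PGCLCs, 97.6, 98.6 and 104 CPM in BPA EpiLCs, and 99.7, 89.95 and 141 CPM in untreated EpiLCs. It was lower in every PGCLC library (log2 change -2.30 ± 0.25 (SE), adjusted p = 1.07e-05), as was H2-D1 in untreated PGCLCs (-1.36), while the peptide loading factor Tapbp (1.41) and the transcription factor Irf1 (1.23) were higher. Between BPA PGCLCs and BPA EpiLCs, where 32.5% of all genes were higher and 25.0% lower, the numbers higher and lower were 0 and 7 of 9 cofactors, 4 and 1 of 7 regulators, 2 and 2 of 8 shuttle genes, 0 and 1 of 6 ubiquitin genes and 4 and 3 of 10 presentation genes.

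BPA PGCLCs against untreated PGCLCs addressed what differed in germ cell-like cells of the BPA arm, with the same PGCLC libraries as in the stage comparisons. Of the 47 tested members, 21 were lower in BPA PGCLCs, against 5.72% of the 16753 tested genes, and 0 were higher, against 8.13%. At an unadjusted p under 0.05 there were 34 members, against 28.8% of all tested genes, and DESeq2 called 27 lower, against 6.92%, and 0 higher. The median change was -0.26 for the members and 0.01 for all tested genes, and 44 of the 47 members changed by less than 0. In BPA replicates 1, 2 and 3 the members' median differences from the untreated mean were -0.25, -0.31 and -0.24 on the log2 scale, and 40, 41 and 40 of 47 members lay below every untreated library, against 29.1%, 30.0% and 27.6% of all tested genes. The number called depended on the libraries in the fit. It was 7 without BPA replicate 1 (against 1.65% of all genes called lower in that fit), 7 without BPA replicate 2 (against 1.51%) and 25 without BPA replicate 3 (against 7.30%). It was 17, 10 and 10 without untreated replicate 1, 2 or 3 (against 3.16%, 2.83% and 2.16%), and 6 when all 12 libraries were fitted together (against 3.11%). In all 6 fits that left out a library, 6 members were called lower, Psma2, Psma6, Psmb5, Psmb6, Psmb7 and Psmd14, and the other 15 were lost in at least 1. The share of all tested genes kept in all 6 fits was not worked out.

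Of the markers of other lineages, the endoderm and immune sums lay apart between BPA and untreated PGCLCs, and the endothelial and trophoblast sums overlapped. The calls below are to be read beside the 8.13% of all tested genes called higher and the 5.72% called lower. The 14 endoderm genes summed to 5198 to 10847 CPM in BPA PGCLCs and 989 to 1538 CPM in untreated PGCLCs, with 7 called higher, 0 lower and 0 unlisted in either group, and Afp, the yolk sac and liver serum protein, stood at 2527, 2486 and 1365 CPM in BPA PGCLCs, and 46.4, 24.5 and 29.2 CPM in untreated PGCLCs. BPA replicate 3 had the lowest endoderm sum of the BPA libraries. The 7 immune genes summed to 29.5 to 63.8 CPM in BPA PGCLCs and 16.5 to 21.5 CPM in untreated PGCLCs, with 2 of 6 tested genes higher, Csf1r and Cd68, and with Ptprc among those unlisted in untreated PGCLCs. Of the 5 endothelial genes, which summed to 202 to 245 CPM in BPA PGCLCs and 217 to 246 CPM in untreated PGCLCs, 2 were lower. Of the 8 trophoblast genes, which summed to 213 to 227 CPM in BPA PGCLCs and 191 to 239 CPM in untreated PGCLCs, 1 was higher and 1 lower. Of the 6 germ cell markers 3 were lower, Prdm1, Prdm14 and Tfap2c, at -0.32, -0.63 and -0.41 on the log2 scale. The part of other cells in the proteasome differences was not tested.

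**Figure D4:**
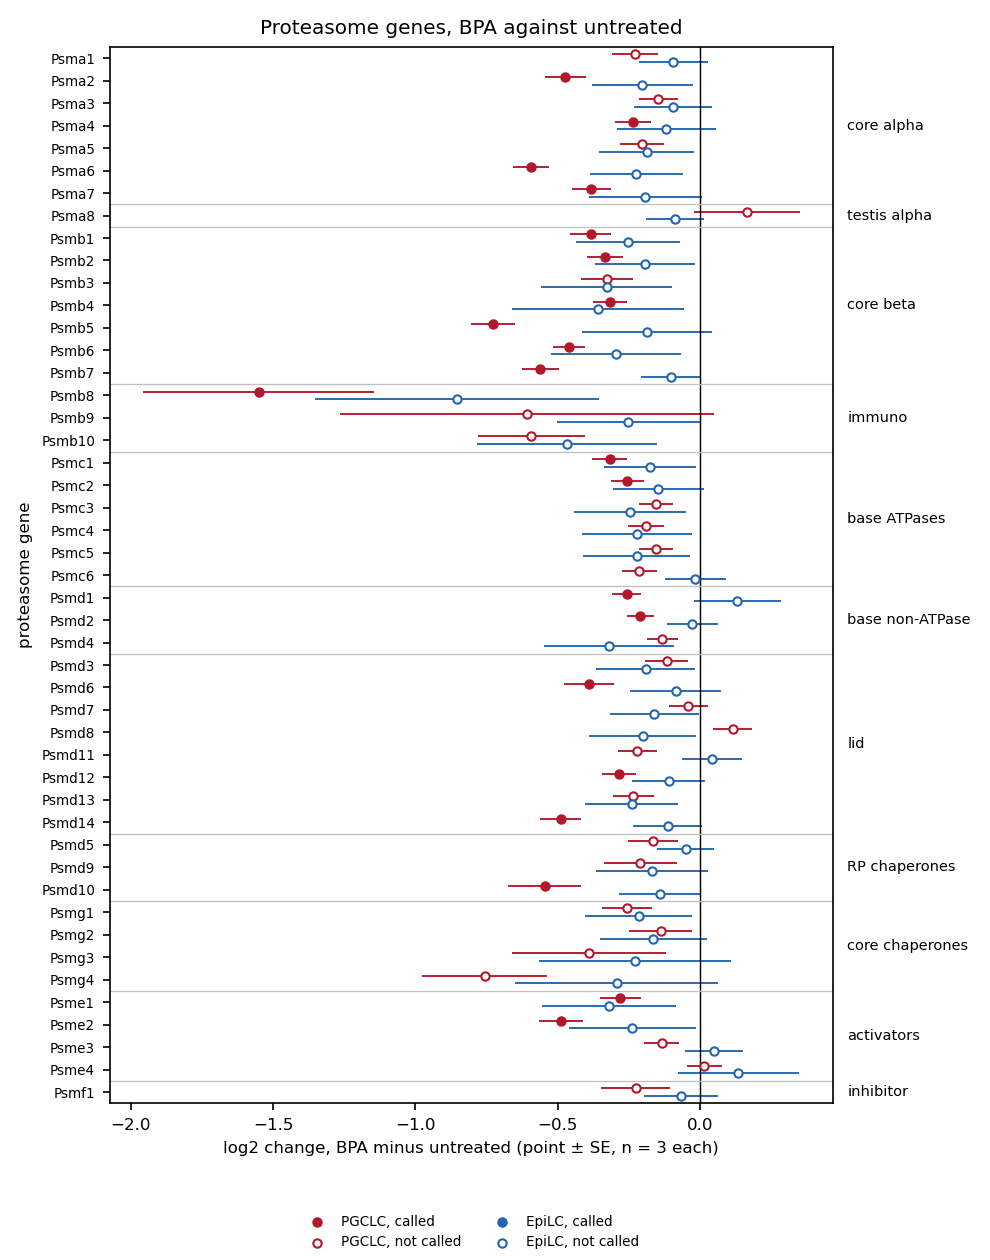
Log2 change of each tested member between BPA and untreated libraries with its SE, in PGCLCs and in EpiLCs, 3 against 3, with filled points for members called at an adjusted p under 0.05. In PGCLCs 44 of 47 points lie left of 0 and 21 are filled, and in EpiLCs 43 lie left of 0 and 0 are filled.

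Within the core, 10 of the 14 alpha and constitutive beta genes were lower in BPA PGCLCs, against 5.72% of all tested genes, with a median change of -0.36. The catalytic genes Psmb5, Psmb6 and Psmb7 were all among them. Psmb5, whose levels are given above, did not overlap between the groups and changed by -0.73 ± 0.08 (log2, SE, adjusted p = 0.0018). Psmb7 stood at 100.0, 96.2 and 98.4 CPM in BPA PGCLCs, 154, 144 and 140.5 CPM in untreated PGCLCs, 184, 172 and 182 CPM in BPA EpiLCs, and 183, 186 and 216 CPM in untreated EpiLCs. BPA PGCLCs were the lowest of the 4 groups, with no overlap, and the change was -0.56 ± 0.06 (log2, SE, adjusted p = 0.00253). Psmb6 changed by -0.46 ± 0.06 (log2, SE, adjusted p = 0.00313). Of the other beta genes, Psmb1, Psmb2 and Psmb4 were called, at -0.38, -0.33 and -0.31, and Psmb3 was not (-0.33 ± 0.09 (log2, SE, adjusted p = 0.0536)). In the alpha ring, Psma6 stood at 121, 116 and 128 CPM in BPA PGCLCs, 193, 184 and 178 CPM in untreated PGCLCs, 246, 227 and 234 CPM in BPA EpiLCs, and 241, 239.8 and 356 CPM in untreated EpiLCs. The BPA PGCLCs were again the lowest group with no overlap (log2 change -0.59 ± 0.06 (SE), adjusted p = 0.00185). Psma2, Psma4 and Psma7 were called, at -0.47, -0.23 and -0.38, and Psma1, Psma3 and Psma5 were not, at -0.23, -0.15 and -0.20. Psma5, Psma6 and the other alpha genes assemble in equal number, and their changes ran from -0.59 to -0.15. The testis gene Psma8 was not called (0.17 ± 0.19 (log2, SE, adjusted p = 0.651)).

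Of the 3 immunoproteasome genes, Psmb8 was called lower in BPA PGCLCs and had the largest change of all members (log2 change -1.55 ± 0.41 (SE), adjusted p = 0.0426). The change rests on 56, 34 and 95 counts in BPA PGCLCs and on 247, 166 and 115 counts in untreated PGCLCs. The groups did not overlap, but the call was kept in 1 of 6 fits that left out a library, the one without BPA replicate 3, and adjusted p reached 0.159. Psmb10 lay lower in each BPA library than in any untreated one and was not called (-0.59 ± 0.19 (log2, SE, adjusted p = 0.0734)), and Psmb9 overlapped (-0.61 ± 0.66 (log2, SE, adjusted p = 0.636)).

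Of the 17 base and lid genes, 7 were lower in BPA PGCLCs and 0 higher, against 5.72% and 8.13% of all tested genes, with a median change of -0.21. In the base, the ATPase genes Psmc1 and Psmc2 were called, at -0.32 and -0.25, as were the scaffold genes Psmd1 and Psmd2, at -0.26 and -0.21. In the lid Psmd6, Psmd12 and Psmd14 were called. Psmd14 stood at 88.7, 88.1 and 85.4 CPM in BPA PGCLCs, 120.2, 133 and 118 CPM in untreated PGCLCs, 200.4, 184 and 181 CPM in BPA EpiLCs, and 185, 197 and 238 CPM in untreated EpiLCs. BPA PGCLCs were the lowest group, with no overlap (log2 change -0.49 ± 0.07 (SE), adjusted p = 0.00563). Psmd8 and Psmd7 were not called, at 0.12 and -0.04. The ratio of the mean level per kb of the regulatory particle genes to that of the core genes was 0.869, 0.901 and 0.855 in BPA PGCLCs, 0.753, 0.7696 and 0.751 in untreated PGCLCs, 0.692, 0.698 and 0.701 in BPA EpiLCs, and 0.692, 0.718 and 0.613 in untreated EpiLCs. All 3 BPA PGCLC libraries had a higher ratio than any other library. This ratio was computed after the values were seen and carries no test.

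Among the other roles, the regulatory particle chaperone Psmd10, which is also known as gankyrin, stood at 15.05, 14.1 and 14.5 CPM in BPA PGCLCs, 23.7, 18.9 and 21.6 CPM in untreated PGCLCs, 18.7, 17.5 and 20.2 CPM in BPA EpiLCs, and 20.5, 17.8 and 24.8 CPM in untreated EpiLCs. BPA PGCLCs lay below all other libraries (log2 change -0.55 ± 0.13 (SE), adjusted p = 0.0295), and the call was kept in 2 of 6 fits that left out a library (adjusted p up to 0.148). The activator genes Psme1 and Psme2 were called lower, at -0.28 and -0.49, and Psme4 was not called (0.02 ± 0.06 (log2, SE, adjusted p = 0.906)). Of the 4 core chaperones 0 were called, with changes from -0.76 (Psmg4, adjusted p = 0.0571) to -0.14 (Psmg2), and Psmf1 was not called (log2 change -0.22).

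Of the genes outside the symbol rule, 3 of 9 cofactors were lower in BPA PGCLCs, against 5.72% of all tested genes. Pomp stood at 62.3, 60.3 and 63.03 CPM in BPA PGCLCs, and 89.9, 92.6 and 92.2 CPM in untreated PGCLCs. The groups did not overlap (log2 change -0.55 ± 0.07 (SE), adjusted p = 0.00294). The lid component Sem1 (-0.53) and the proteasome adaptor Ecpas (-0.29) were the others. Of 7 regulators 0 were called, the nearest being Mafk (1.17 ± 0.33 (log2, SE, adjusted p = 0.0501)). Of 8 shuttle genes 1 was higher, Ubqln2 (0.83), and of 6 ubiquitin and E1 genes 2 were lower, Rps27a (-0.31) and Uba1 (-0.21). Of the 10 presentation genes 1 was called, B2m, the light chain of MHC class I, which stood at 40.3, 45.8 and 31.6 CPM in BPA PGCLCs, and 18.2, 17.5 and 17.3 CPM in untreated PGCLCs. It was higher in every BPA library (log2 change 1.16 ± 0.15 (SE), adjusted p = 0.00356), while Psmb8, which makes peptides for the same pathway, was lower.

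**Figure D5:**
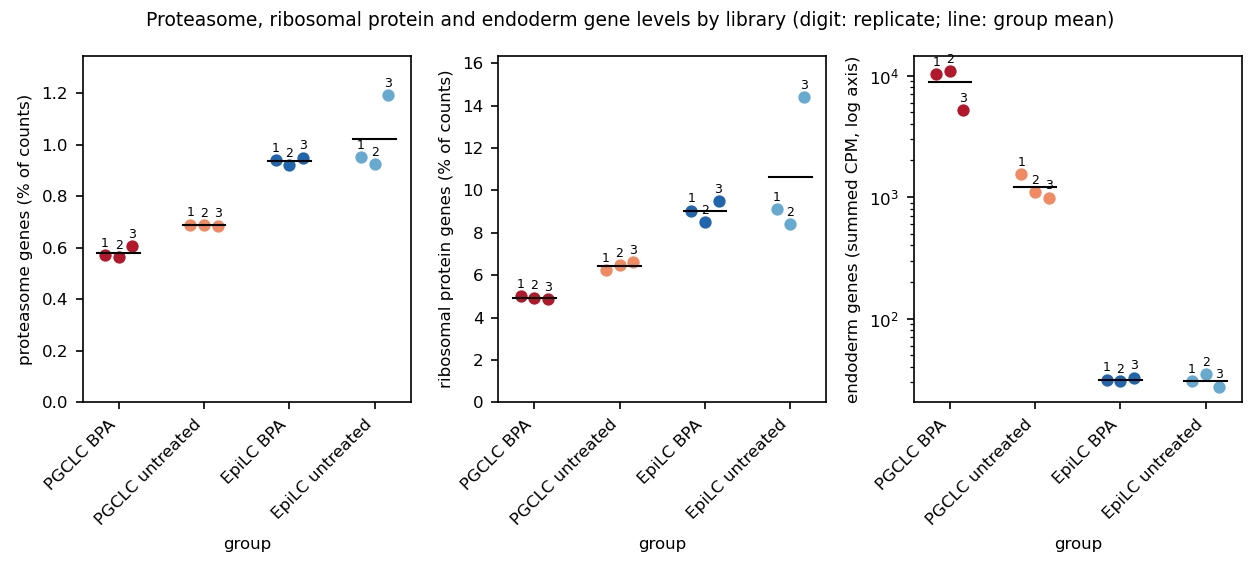
Share of assigned counts taken by the 48 proteasome genes in each library, beside the ribosomal protein share and the summed endoderm markers on a log axis. The proteasome share is smallest in the 3 BPA PGCLC libraries, at 0.564% to 0.606%, where the endoderm sum is largest, at 5198 to 10847 CPM.

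BPA EpiLCs against untreated EpiLCs addressed the direct exposure. None of the 47 tested members was called in edgeR's test, and 0% of the 15252 tested genes were. At an unadjusted p under 0.05 there were 0 members and 118 genes (0.774%), DESeq2 called 0 members and 1 gene, which was lower (0.00599%), and limma-trend called 0 members. The members' median change was -0.19, with 43 below 0, and the smallest adjusted p was 0.943. Without untreated EpiLC replicate 3 the median was 0.01, with 18 of 47 below 0. The members with the smallest p were Psmb8, Psmb10, Psmd13, Psmb3 and Psmd4, with log2 changes of -0.85, -0.47, -0.24, -0.33 and -0.32. The lid gene Psmd13 stood at 166, 155 and 169 CPM in BPA EpiLCs, and 175, 164 and 248 CPM in untreated EpiLCs. The ubiquitin receptor gene Psmd4 stood at 222, 211 and 242 CPM in BPA EpiLCs, and 245, 210.4 and 400.4 CPM in untreated EpiLCs. For both, untreated replicate 3 was the highest library and the others overlapped. Psmb9, Psma8 and Psme4 changed by -0.25, -0.09 and 0.14. Of the companion genes 0 were called.

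Whether BPA differed in its effect between PGCLCs and EpiLCs was tested as the interaction in the fit of all 12 libraries, the BPA change in PGCLCs minus that in EpiLCs. It shares its libraries with the comparisons above. Of the 47 members 0 were called in edgeR's test, against 1.01% of 17608 genes called higher and 0.312% called lower, and 3 of 47 members had an unadjusted p under 0.05, against 13.9% of all tested genes. The smallest p was that of Psmb7 (-0.45 ± 0.12 (log2, SE, adjusted p = 0.112)), which DESeq2 called lower (adjusted p = 0.0159), against 1.31% of all genes with an adjusted p in DESeq2. Psmd14, Psmd1, Psmd11 and Psmb5 followed, with differences of -0.37, -0.39, -0.26 and -0.53 on the log2 scale. Psmd1 stood at 263, 254 and 271 CPM in BPA PGCLCs, 325, 315 and 309 CPM in untreated PGCLCs, 427, 405 and 396 CPM in BPA EpiLCs, and 393, 435 and 303 CPM in untreated EpiLCs. Its BPA PGCLCs lay below all other libraries, and untreated EpiLC replicate 3 was below the other EpiLCs. Psmb8, Psmb9, Psmb10, Psma8 and Psme4 had differences of -0.68, -0.33, -0.11, 0.26 and -0.12. Without untreated EpiLC replicate 3, 7 members were called lower, against 1.61% of 18885 genes: Psma2, Psma6, Psmb5, Psmb6, Psmb7, Psmd6 and Psmd14. Of the companion genes, B2m was called higher (log2 change 1.17 ± 0.19 (SE), adjusted p = 0.0123) and 0 others.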

How the data were processed

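The authors deposited raw read counts per gene for each library, without genes under 10 counts, and tables of CPM per stage, which are the same counts scaled to each library total. STAR, HTSeq, FastQC, bcl2fastq 2.19.1.403 and mm10 are named per the submitters' processing notes, and the kit is strand-specific per the labels' protocols. Summary entries without a gene (no feature 4.42% to 10.7%, ambiguous 4.56% to 6.07% of reads) were left out.

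Genes unlisted in a library were set to 0. Counts were tested with edgeR 4.0.16 (R 4.3.3; TMM, filterByExpr, quasi-likelihood), each BPA contrast within its stage's 6 libraries and the stage contrasts and interaction in 1 fit of 12. DESeq2 1.42.0 and limma 3.58.1 (log2 of the deposited CPM plus 1) were alternatives. The test was tried on simulated data. Annotation was GENCODE for 21695 of 21728 IDs, and transcripts were matched by 50-base words. Members and lists were chosen with earlier results of these data known. Named were up to 6 called members with the largest rise and 6 with the largest fall per comparison (or the 5 with the smallest p), Psmb8, Psmb9, Psmb10, Psmb11, Psma8, Psme4, and up to 4 called genes of each companion list, of which some are not reported here. The planned permutation tests of summed shares are not given. The replicate numbers are from the labels. Same-numbered BPA and untreated EpiLC libraries deviated together (r = 0.18, 0.34 and 0.46). However, BPA replicate 1 also deviated with untreated replicate 2 (r = 0.36) and BPA replicate 2 with untreated replicate 1 (r = 0.19). Same-numbered BPA and untreated PGCLC libraries did not deviate together (r = 0.066, -0.012 and -0.028). Whether equal numbers mark pairs was thus not settled. The reported tests used group means without pairing, and a replicate block was tried as an alternative.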

Additional observations from a re-analysis of the deposited data

How the results depend on the processing

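Counts of called members were recomputed under other scalings, filters, tools and sets of libraries. Of the recomputed counts 139 lay within 1.5 times the reported one and 15 did not. Many of the 139 were counts of 0 set beside a reported 0, for which this band says little. Members higher in untreated PGCLCs than in untreated EpiLCs numbered 4, but 2 in a fit of those 6 libraries alone and 2 to 5 when 1 library was left out. Members higher in BPA PGCLCs than in BPA EpiLCs numbered 2, but 5 in a fit of those 6 libraries alone, 1 with the replicate block and 1 to 2 when 1 library was left out. Members lower in BPA PGCLCs than in untreated PGCLCs numbered 21, but 6 in the fit of 12 libraries and 7 to 25 when 1 library was left out. Interaction calls lower numbered 0, but 1 with DESeq2 and 0 to 7 when 1 library was left out. The cause was not tested.

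With the replicate number as a block, 16 members were lower in BPA PGCLCs, 15 of them among the 21, and Psmb8 and Psmd10 were among those no longer called (adjusted p = 0.0684 and 0.0564). Between BPA and untreated EpiLCs the block changed no call, as 0 of 15252 tested genes were called with or without it. In the stage comparisons it ended the calls of Psmd11 in untreated (adjusted p = 0.0551) and Psmb8 in BPA libraries (adjusted p = 0.0574).

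Among the medians and the genes named in each comparison, signs turned for 6 results. Members that were not named are outside this count. Between BPA and untreated EpiLCs 43 of the 47 tested members were below 0, but 18 were without untreated EpiLC replicate 3. Leaving out 1 library at a time, the members' median between BPA and untreated EpiLCs ran from -0.299 to 0.0087, Psmb9 from -0.463 to 0.0255 and Psme4 from -0.0738 to 0.303, each with untreated EpiLC replicate 3 at the turned end. Between BPA and untreated PGCLCs Psme4 ran from -0.0355 to 0.0552, with values below 0 (-0.0032 and -0.0129 among them) without untreated replicate 2, untreated replicate 3 or BPA replicate 3. In the interaction Psmb10 ran from -0.571 to 0.123 (above 0 without untreated EpiLC replicate 1 or 2) and Psme4 from -0.282 to 0.111 (above 0 without untreated EpiLC replicate 3).

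Without division by length, immunoproteasome shares were 3.97%, 4.64%, 10.05% and 11.3% in BPA PGCLCs, untreated PGCLCs, BPA EpiLCs and untreated EpiLCs. With the length of all annotated exons, chosen after seeing the data, they were 3.76%, 4.10%, 9.65% and 10.8%. With ribosomal protein genes left out of the total, the proteasome share was 0.610% in BPA PGCLCs, 0.735% in untreated PGCLCs and 1.03% in BPA EpiLCs. EpiLC libraries were the shallowest, and counts of 11 to 29 limit Psmb8 there.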
